A study of Homo sapiens with 4 samples.

Results

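The long noncoding RNAs *NEAT1* and *MALAT1* were followed in 4 single-cell RNA-seq libraries of A375 cells, a human melanoma line with BRAF V600E. They are 2 of the 34241 genes listed in any library, and 2 of the 6506 genes whose mean level over the libraries reached 10 CPM (counts per 1000000 UMIs, the unique molecular identifiers that each stand for 1 captured RNA molecule). *NEAT1* was chosen for its level in the library of vemurafenib with trametinib, so the levels below are a description and carry no test. Untreated cells formed the library S, cells given vemurafenib (a BRAF inhibitor) formed RV, cells given vemurafenib with cobimetinib (a MEK inhibitor) formed RVC, and cells given vemurafenib with trametinib (another MEK inhibitor) formed RVT. The drugs were given over 10 to 14 days and withdrawn 24 h before capture. Per the labels the drug-treated cultures are resistant cells, and S is their sensitive counterpart. Each condition was 1 library, so no difference between conditions has a replicate check, and all intervals are 95% intervals that cover counting error only.

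*NEAT1* and *MALAT1* lie next to each other on chromosome 11, and both transcripts stay in the nucleus. The long form of *NEAT1* is the scaffold of paraspeckles, nuclear bodies that hold RNA-binding proteins such as NONO, SFPQ and PSPC1, and *NEAT1* is a known transcriptional target of p53. *MALAT1* gathers at nuclear speckles, the bodies rich in splicing factors, and is among the most abundant long noncoding RNAs of many cell types. Both long transcripts end by RNase P cleavage ahead of a tRNA-like RNA and are protected by a triple helix at the 3′ end, whereas the short *NEAT1* form ends in an ordinary poly(A) tail.

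The ends of both genes are shown first, since the libraries were primed with oligo(dT). The values used were counts per gene, so which part of each RNA gave the counts was not tested. *NEAT1* occupies chr11:65422774-65445540 and *MALAT1* chr11:65497688-65506516, both on the plus strand of GRCh38 (GENCODE 29). The last 120 bases of the long *NEAT1* transcript (NEAT1-202, chr11:65445421-65445540, exonic) and of *MALAT1* (MALAT1-202 up to its cleaved end, chr11:65505997-65506116, exonic) are given 5′ to 3′, with capitals for the 3 stretches of at least 8 bases that both ends hold.
NEAT1 end: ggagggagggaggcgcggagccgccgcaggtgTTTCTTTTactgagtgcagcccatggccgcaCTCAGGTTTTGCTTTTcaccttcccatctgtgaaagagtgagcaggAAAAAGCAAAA
MALAT1 end: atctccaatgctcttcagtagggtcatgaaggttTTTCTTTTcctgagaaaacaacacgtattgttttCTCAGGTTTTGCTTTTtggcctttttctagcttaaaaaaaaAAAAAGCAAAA
The shared stretches were 8, 16 and 11 bases long, and they stood in the same order in both RNAs. Of the last 120 bases of 200739 other annotated transcripts, 1.48% held the 8-base stretch, 0.0548% held the 11-base stretch and 0 held the 16-base stretch. The A tract before the final GCAAAA was 5 bases long in *NEAT1* and 13 bases long in *MALAT1*.

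A further *NEAT1* stretch lies near the ends of some annotated short transcripts, away from the end shown above. It spans chr11:65426463-65426548. NEAT1-201 ends at 65426457, just before it, and NEAT1-207 and NEAT1-208 end inside it, at 65426499 and 65426513. The other short transcripts, NEAT1-203 to NEAT1-206, end further upstream, between 65424404 and 65426405. Capitals mark the letters AATAAA, read on the transcribed strand only, 46 bases past the end of NEAT1-201.
NEAT1 stretch at the short ends: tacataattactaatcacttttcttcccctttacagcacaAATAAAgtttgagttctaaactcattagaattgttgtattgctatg
AATAAA was present in 2.65% of 264 consecutive windows of 86 bases along NEAT1-202. The long form is a single exon of 22743 bases with 5 runs of at least 10 A, and MALAT1-202 is a single exon of 8708 bases with 1 such run. The counts were given per gene, so the short and long forms of *NEAT1* could not be told apart in any value below.

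After filtering, S held 6334 cells, RV 4177, RVC 7628 and RVT 8446, with median UMIs per cell between 2864 in RVT and 11553 in RV. The count tables came from 2 gene annotations, one in S and RV and the other in RVC and RVT, and both members were listed in all 4. Between 38 and 149 cell barcodes were shared by each pair of libraries. The melanocyte-lineage markers *SOX10* (86.5, 39.9, 0 and 19.7 CPM in S, RV, RVC and RVT), *S100B* (32.8, 6.96, 0 and 0.236 CPM) and *MIA* (245, 166, 1.88 and 103 CPM) were highest in S. *MITF* (9.77, 20, 8.13 and 41.9 CPM) and *PRAME* (35.0, 41.0, 57.2 and 67.5 CPM) were highest in RVT, *VIM* ranged from 331 CPM in RVT to 2590 CPM in RV, and *PMEL*, *MLANA*, *TYR* and *DCT* were at 0.457 CPM or below in all 4. Markers of other cell types summed to 0.889, 1.01, 19.3 and 6.73 CPM, of which *DCN* gave 14.8 CPM in RVC, while *PTPRC*, *CD3E* and *CDH1* were at 0. Their part in the results was not tested.

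*NEAT1* was higher in every drug-treated library than in S, and it stood far above the others in RVT. Untreated cells gave 465 CPM (459 to 470, from 27187 UMIs), and RV cells gave 774 CPM (766 to 781, from 40588 UMIs). In RVC it gave 1450 CPM (1437 to 1463, from 47813 UMIs), and in RVT 7464 CPM (7430 to 7497, from 189501 UMIs). The order was S, RV, RVC and RVT, and no neighbouring intervals overlapped. Among all listed genes *NEAT1* ranked 234th, 164th, 119th and 25th in these libraries. The median mitochondrial percent of the cells was 3.16, 3.06, 3.58 and 5.77, so RVT was also highest in that measure, whose part in the *NEAT1* level was not tested.

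*MALAT1* was abundant in all 4 libraries and had another order. Untreated cells gave 11786 CPM (11758 to 11813), and RV cells 8969 CPM (8943 to 8994). RVC cells gave 25050 CPM (24996 to 25104), and RVT cells 20041 CPM (19986 to 20096). RV was thus lowest and RVC highest, with none of the counting intervals overlapping. In cells of 4000 to 8000 UMIs, however, RV was not below S (log2 0.022 in RV over S, against −0.39 in all cells). *MALAT1* was the fifth most abundant gene in S and the 15th in RV, and only 1 gene stood above it in RVC and in RVT. It took 2.51% of all UMIs in RVC and 2.00% in RVT, against 0.746% for *NEAT1* in RVT.

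**Figure D1:**
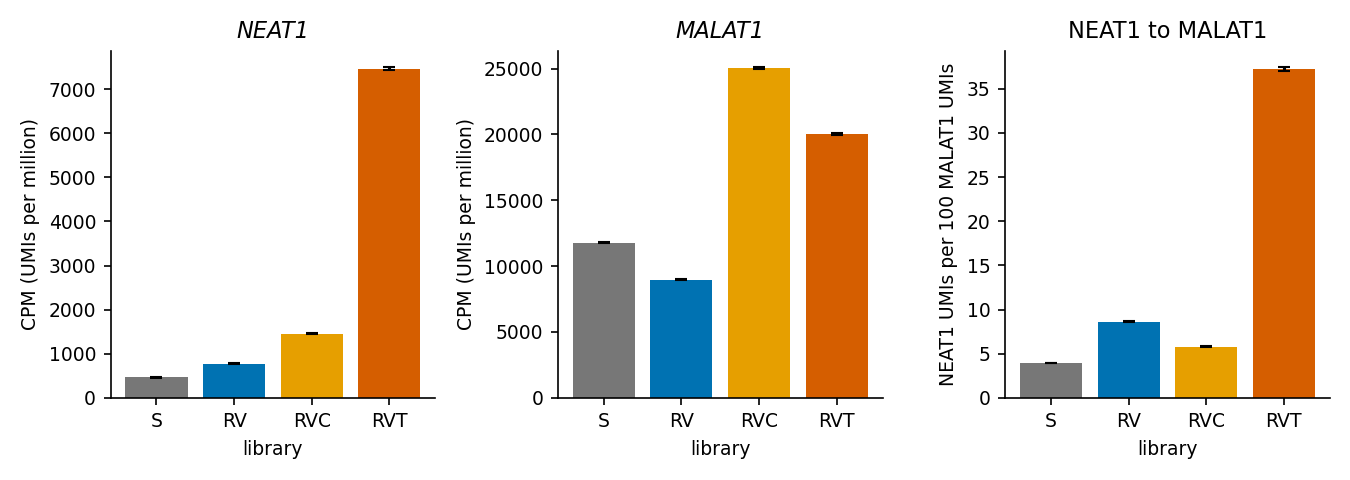
Level of *NEAT1* and *MALAT1* in the 4 libraries (S untreated, RV vemurafenib, RVC vemurafenib + cobimetinib, RVT vemurafenib + trametinib), in CPM with 95% counting intervals. *NEAT1* goes from 465 in S to 7464 in RVT, while *MALAT1* lies between 8969 in RV and 25050 in RVC.

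The comparisons of RV, RVC and RVT with S share the S library. *NEAT1* was 1.67-fold higher in RV than in S (1.64 to 1.69), 3.12-fold higher in RVC (3.07 to 3.17) and 16.1-fold higher in RVT (15.9 to 16.3). Between the libraries with a MEK inhibitor, it was 5.15-fold higher in RVT than in RVC (5.10 to 5.20). Of the 6506 genes with at least 10 CPM, 3.34% had a higher ratio than *NEAT1* in RV over S, 7.72% in RVC over S, 0.707% in RVT over S and 2.01% in RVT over RVC.

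*MALAT1* was 0.761-fold in RV relative to S (0.758 to 0.764), 2.13-fold in RVC (2.12 to 2.13) and 1.70-fold in RVT (1.69 to 1.71). In RVT relative to RVC it was 0.8-fold (0.797 to 0.803). Of the 6506 genes, 91.5%, 19.8%, 34.9% and 69.9% had a higher ratio than *MALAT1* in the same 4 comparisons. Neither member passed 2-fold in RV over S, where 3.15% of all genes did. In cells of 4000 to 8000 UMIs, and in cells with under 0.1% of their UMIs on G2/M genes, *NEAT1* did pass it there (log2 1.11 and 1.34). Both passed it in RVC over S, where 45.8% of genes did, but *MALAT1* (log2 1.09) no longer did with TMM (trimmed-mean) scaling (0.88), without ribosomal protein and mitochondrial genes (0.89), with GC centring (0.81) or in cells of 4000 to 8000 UMIs (0.89). *NEAT1* passed it in RVT over S, where 53% did, and in RVT over RVC, where 27.1% did. The share of genes past 2-fold was thus larger in RVC and RVT over S than in RV over S or RVT over RVC. RVC and RVT also differ from S in gene annotation and depth, whose part in these shares was not tested.

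The balance between the members differed most in RVT, which is no separate result, since *NEAT1* was chosen for its level there. For each 100 *MALAT1* UMIs S cells held 3.94 *NEAT1* UMIs (3.89 to 3.99) and RV cells 8.63 (8.54 to 8.71). RVC cells held 5.79 (5.74 to 5.84) and RVT cells 37.2 (37.0 to 37.4). The ratio does not depend on the scaling between libraries, but it compares captured 3′ counts and is no ratio of the molecules in the cells. Whether both genes were captured and counted alike in each library was not tested.

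*NEAT1* was spread more evenly over the cells of RVT than over those of the other libraries. Its median share of a cell's UMIs was 0.0237%, 0.0245%, 0.110% and 0.722% in S, RV, RVC and RVT. The median was thus nearly equal in S and RV, although the mean level differed 1.67-fold. The 90th percentile was 0.107% in S and 0.244% in RV, and the share of cells with at least 0.1% of their UMIs on *NEAT1* was 11% in S and 22.4% in RV. In RVC this share was 53.3%. In RVT, for whose level *NEAT1* was chosen, it was 99.7%.

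Nearly all RVT cells held *NEAT1*, which is no separate result, since *NEAT1* was chosen for its level there. A *NEAT1* UMI was found in 80.7% of S cells, 82.7% of RV cells, 89.7% of RVC cells and all but 3 of the RVT cells. After thinning each cell to 1500 UMIs, which left out 397 RVC and 844 RVT cells with fewer, the shares were 37.0%, 42.2%, 73.7% and 99.8%. An even spread with counting error alone would give 49.8%, 69.8%, 89.6% and 99.999% at the same mean counts. No cell type known to lack *NEAT1* was at hand, and the share that free RNA in the droplets could give was not tested. The 10% of cells with most *NEAT1* UMIs held 50.8%, 53.2%, 35.8% and 21.5% of its UMIs in S, RV, RVC and RVT. In the thinned cells, which are equal in depth, these values were 53.9%, 56.7%, 36.6% and 20.9%. The variation beyond counting error in the thinned cells, as a coefficient of variation, was 1.45, 1.63, 0.997 and 0.432 in S, RV, RVC and RVT.

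*MALAT1* was present in at least 99.7% of the cells of each library. Its median share of a cell's UMIs was 1.10%, 0.844%, 2.22% and 1.93% in S, RV, RVC and RVT, and its coefficient of variation beyond counting error was 0.515, 0.620, 0.684 and 0.503. *MALAT1* thus varied less than *NEAT1* between cells in S, RV and RVC, but not in RVT. Cells with over 5% of their UMIs on *MALAT1* numbered 14, 6, 690 and 168 in S, RV, RVC and RVT.

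**Figure D2:**
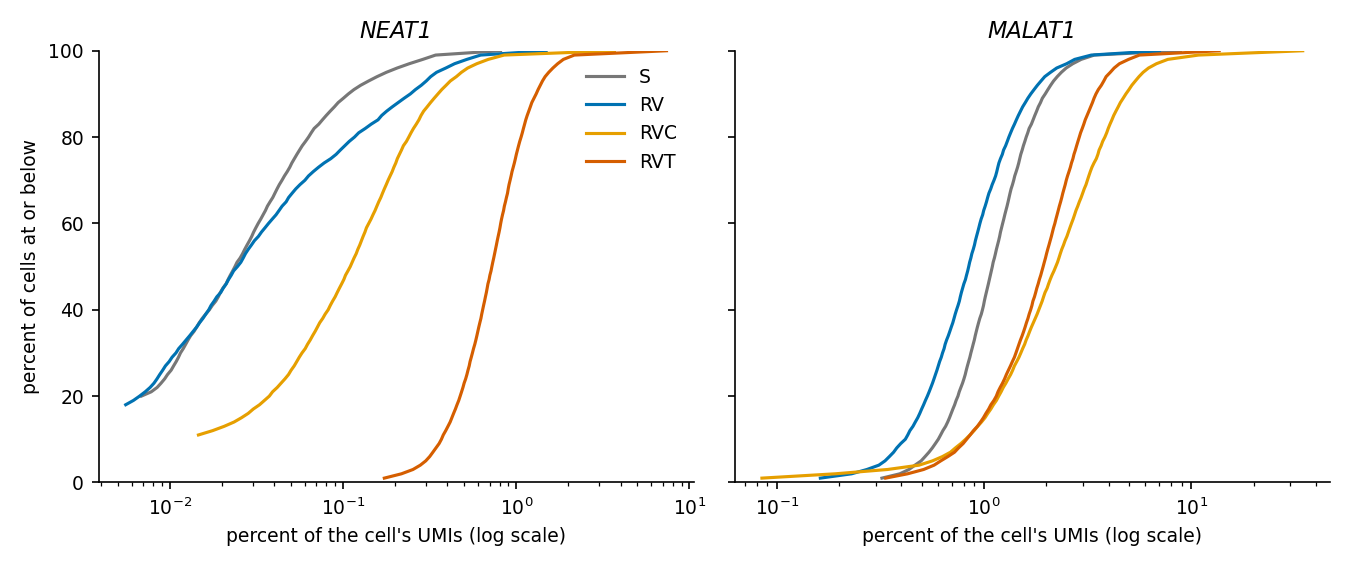
Distribution over cells of the percent of a cell's UMIs on *NEAT1* and *MALAT1*, by library. The median *NEAT1* share is 0.0237% in S and 0.722% in RVT, and the *MALAT1* medians lie between 0.844% and 2.22%.

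In S, RV and RVC, *NEAT1* was lower in cells with more cell cycle RNA, most steeply in RV, and in RVT the rank groups differed little. Cells were ranked by their share of UMIs on G1/S genes, which serve DNA replication, and split into 4 rank groups of equal size. From the lowest to the highest group *NEAT1* went from 801 to 215 CPM in S and from 1942 to 152 CPM in RV. RVC went from 2134 to 1047 CPM and RVT from 7901 to 7092 CPM. The rank correlation over single cells was −0.306, −0.607, −0.245 and −0.072, given as a description of 6334, 4177, 7628 and 8446 cells that share a library and differ in depth. Ranked by G2/M genes, which serve mitosis, the highest group had 0.275, 0.112, 0.402 and 0.928 of the *NEAT1* level of the lowest in S, RV, RVC and RVT. The RVT ranks rest on few cell cycle UMIs, with median G2/M shares of 0% in the lowest group and 0.163% in the highest. In RV these medians were 0.0472% and 0.481%. When thinned cells were grouped by *NEAT1* instead, the highest group had 0.416 of the G2/M list level of the lowest in RVT and 0.393 in RV.

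*MALAT1* differed less than *NEAT1* along the same rankings in S, RV and RVC. Its highest G1/S group had 0.857, 0.692, 0.744 and 1.02 of the level of the lowest. In RVT that direction turned with at least 1000 genes required per cell or with 10 groups in place of 4. For G2/M genes the values were 0.900, 0.687, 0.889 and 1.13.

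The mitochondrial share of a cell's UMIs, a sign of cell quality, moved with *NEAT1* in the opposite way. From the lowest to the highest group *NEAT1* went from 326 to 745 CPM in S and from 617 to 1102 CPM in RV. RVC went from 1012 to 2067 CPM and RVT from 7110 to 8562 CPM. *MALAT1* went from 18036 to 34035 CPM in RVC, while its ratios in S, RV and RVT were 1.15, 1.15 and 0.885. By total UMIs, *NEAT1* was lower in the deepest cells of RVT (from 9486 to 6408 CPM) and of RVC (from 1872 to 1266 CPM), with ratios of 1.01 in S and 0.897 in RV. *MALAT1* was lower in the deepest cells of each library, with ratios of 0.758, 0.566, 0.768 and 0.792 in S, RV, RVC and RVT. The part of cell quality and depth in the cell cycle pattern was not tested.

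**Figure D3:**
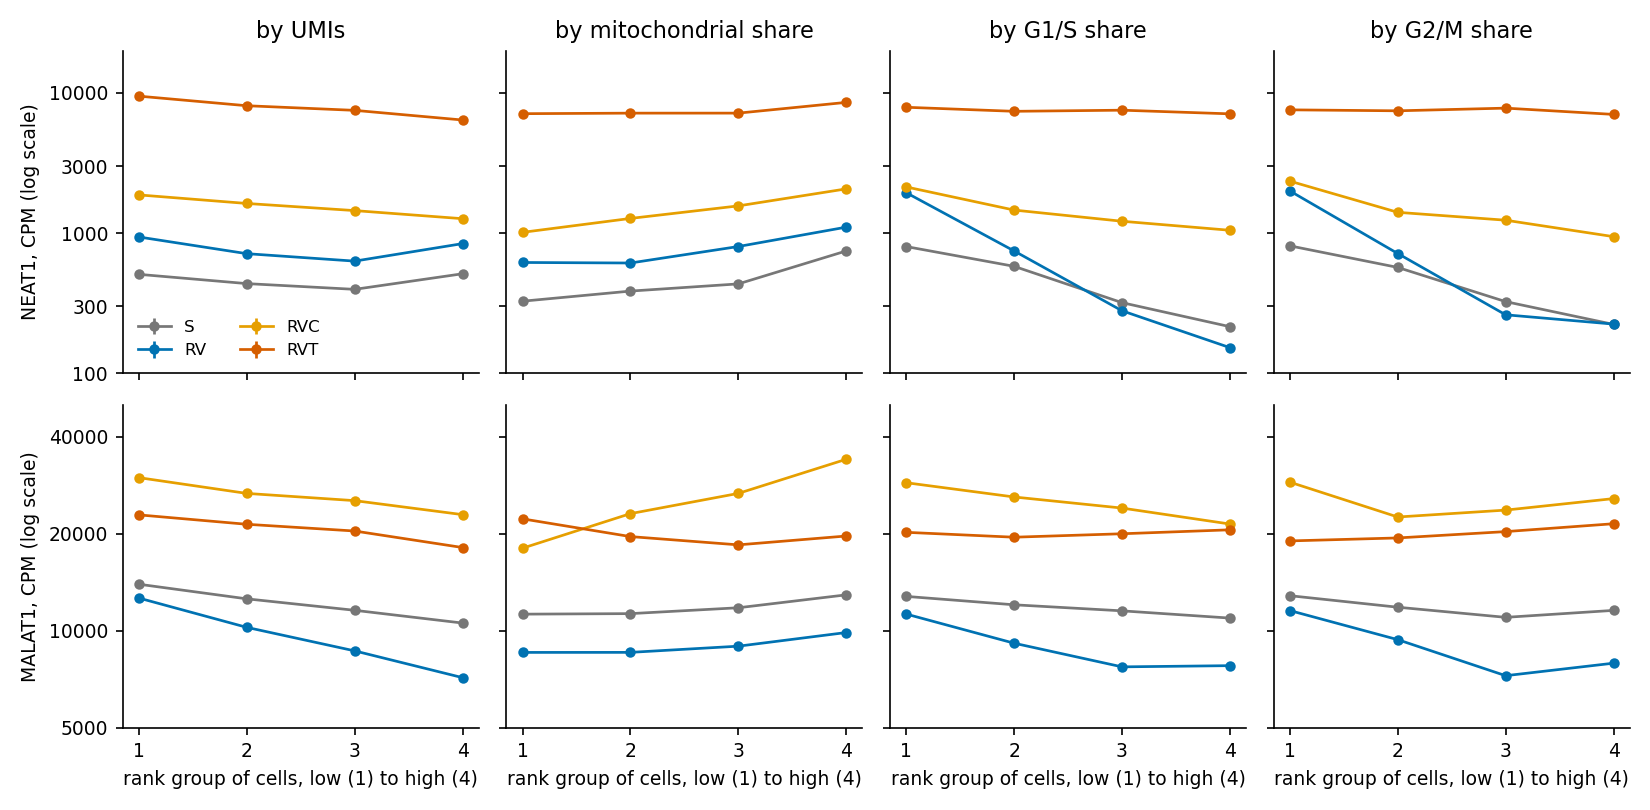
*NEAT1* and *MALAT1* levels (CPM, log axis) in 4 groups of cells ranked within each library by G1/S share, G2/M share, mitochondrial share and total UMIs, with lines joining the groups of a library. *NEAT1* goes from 1942 to 152 across the G1/S groups of RV and from 7901 to 7092 across those of RVT.

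Rank groups hold different absolute amounts of cell cycle RNA in each library, so cells were also put in fixed classes by their share of UMIs on G2/M genes, a choice made after seeing the data. Cells under 0.1% numbered 3375, 1514, 558 and 5829 in S, RV, RVC and RVT, and those of 0.5% or more 431, 486, 2924 and 413. Cells between 0.1% and 0.5% had median UMIs of 9515.5, 11797, 4033 and 2655.5. A given share thus stands for fewer G2/M UMIs in RVC and RVT, so their cells are classed less surely. The part of depth in the class levels was not tested. In cells under 0.1%, *NEAT1* stood at 674 CPM, 1703 CPM, 3003 CPM and 7610 CPM in S, RV, RVC and RVT. Between 0.1% and 0.5% the levels were 264, 290, 1581 and 8007 CPM. In cells of 0.5% or more, it stood at 217 CPM, 254 CPM, 1032 CPM and 3999.6 CPM in S, RV, RVC and RVT.

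RVT had the highest *NEAT1* level in each class, and RV differed from S mainly in the lowest. *NEAT1* in RV relative to S was 2.53-fold in cells under 0.1% (2.48 to 2.57), 1.10-fold between 0.1% and 0.5% (1.06 to 1.13) and 1.17-fold at 0.5% or more (1.08 to 1.27). In RVC relative to S the ratio was 4.46, 5.99 and 4.76 in the same order, and in RVT relative to S it was 11.3, 30.3 and 18.4. RVT relative to RVC gave 2.53, 5.06 and 3.88. The RVT cells of 0.5% or more, 4.89% of that library, were at 0.519 of the level of the other RVT cells, and the same ratio was 0.447 in S, 0.299 in RV and 0.599 in RVC, so in RVT the level was lower in that class but not in the middle one.

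*MALAT1* had no such gradient in S, at 12314, 10844 and 13507 CPM from the lowest class to the highest. It stood at 11041, 7688 and 8656 CPM in RV, at 32827, 24223 and 25014 CPM in RVC and at 19566, 22243 and 17093 CPM in RVT.

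**Figure D4:**
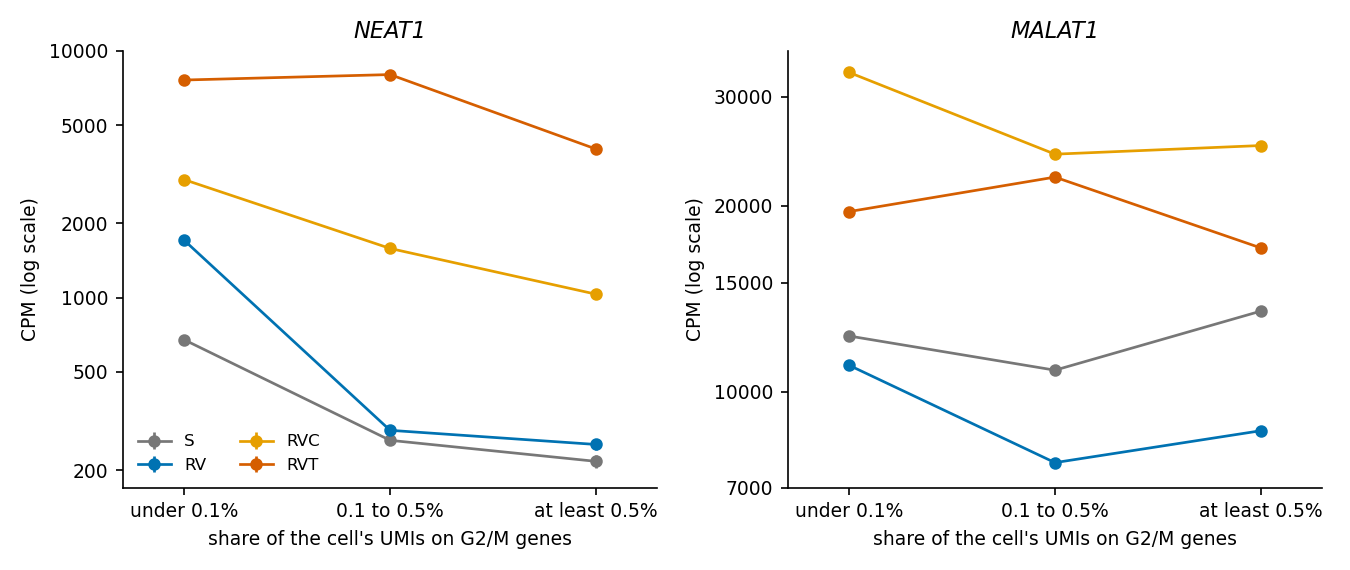
*NEAT1* and *MALAT1* levels (CPM) in cells grouped by fixed shares of UMIs on G2/M genes, with 95% counting intervals. In cells under 0.1%, *NEAT1* goes from 674 in S to 7610 in RVT, and in those of 0.5% or more from 217 to 3999.6.

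Cells with more *NEAT1* also held more *MALAT1* in each library. The rank correlation of their shares over cells was 0.26, 0.348, 0.434 and 0.403 in S, RV, RVC and RVT, and 0.166, 0.281, 0.356 and 0.355 in cells thinned to 1500 UMIs. The cells share a library, and the unthinned values also share its range of depths. In thinned cells the group with most *NEAT1* held a mean of 21.2 *MALAT1* UMIs against 16.8 in the group with least in S, 20 against 12.6 in RV, 52.1 against 27.4 in RVC and 39.9 against 24.3 in RVT.

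Among 995 abundant genes, *MALAT1* had the highest mean correlation with *NEAT1* over the 4 libraries (0.305), at 0.193, 0.306, 0.381 and 0.34. The highest single value was *CDKN1A* in S (0.263) and *S100A6* in RV (0.353). The next by mean was *CDKN1A* (0.238), which encodes the cell cycle inhibitor p21, followed by *SAT1* (0.177), the enzyme that starts polyamine breakdown, *MT-CO1* (0.169) and *S100A6* (0.169). The lowest were *H2AZ1* (−0.226), *TUBA1B* (−0.222), *H4C3* (−0.218), *MT2A* (−0.193) and *PCLAF* (−0.186), which include histone, tubulin and replication genes. *S100A6* (0.049 in RVC) and *MT2A* (−0.437 in RV and −0.017 in RVT) varied widely between libraries. For *MALAT1* the highest after *NEAT1* were *MT-CO1* (0.185), *MT-CO3* (0.15), *SAT1* (0.122) and *TIMP1* (0.122). The *MALAT1* correlation with *MT-CO1* was 0.446 in RVC and 0.004 in RVT. Its lowest were genes of ribosomal proteins, led by *RPS23* (−0.194), *RPL12* and *RPL32*. These are descriptions over cells that share library and depth.

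Targets of p53 were higher in the cells with most *NEAT1* in all 4 libraries. In thinned cells, with both members taken out of the totals, the summed list went from 504 CPM in the lowest *NEAT1* group to 824 CPM in the highest in S (1.64-fold). It went from 809 to 1506 CPM in RV (1.86-fold) and from 349 to 799 CPM in RVC (2.29-fold). RVT went from 413 to 654 CPM (1.58-fold). With no *NEAT1* UMI in 3992 S, 2415 RV and 1902 RVC cells after thinning, the lowest group there is a random part of such cells. Of the list's genes with at least 100 UMIs, 9 of 11, 10 of 10, 9 of 10 and 9 of 9 were higher, where 1496 of 3611, 961 of 2721, 2344 of 4027 and 3526 of 4818 of all such genes were. Past 2-fold higher were 4, 3, 2 and 1 of them, where 0.332%, 2.06%, 1.81% and 0.353% of all such genes were. The median mitochondrial percent of the cells moved the same way, from 3.06, 2.98, 3.22 and 5.58 in the lowest group to 3.28, 3.25, 3.87 and 5.82 in the highest, and its part in the result was not tested.

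*CDKN1A* had the widest gap of the 6 p53 targets with at least 100 UMIs in every library. It went from 49.8 to 199.8 CPM in S (4.01-fold) and from 101 to 491 CPM in RV (4.86-fold). RVC went from 53.7 to 316 CPM (5.88-fold) and RVT from 76.9 to 179 CPM (2.32-fold). *MDM2*, whose product degrades p53, was 3.6-fold, 2.67-fold, 2.22-fold and 1.57-fold higher. Within cells under 0.1% of UMIs on G2/M genes the p53 list differed 2.05-fold, 2.38-fold, 3.78-fold and 1.63-fold, and *CDKN1A* 6.13-fold, 5.28-fold, 11.9-fold and 2.52-fold. In RVC the lowest and highest groups of such cells held only 129 and 128 cells, and the *CDKN1A* interval was 7.12 to 21.2. Without *CDKN1A* the p53 list differed 1.62-fold, 1.77-fold, 1.88-fold and 1.43-fold in the cells under 0.1%, and 1.38-fold, 1.43-fold, 1.64-fold and 1.41-fold in all thinned cells. The G1/S list still differed between the *NEAT1* groups of the cells under 0.1% in S (0.746, 0.661 to 0.841) and RV (0.461, 0.384 to 0.551). Its intervals included 1 in RVC (0.870, 0.669 to 1.13) and RVT (1.10, 0.987 to 1.22). Ranking by *MALAT1* gave smaller p53 list ratios of 1.11, 1.15, 1.77 and 1.20.

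Cell cycle lists went the other way, and the summed list of paraspeckle proteins differed less. The G1/S list in the highest *NEAT1* group was 0.662, 0.386, 0.708 and 0.752 of the lowest in S, RV, RVC and RVT, and the G2/M list 0.624, 0.393, 0.661 and 0.416. The paraspeckle protein list gave 0.877, 0.845, 0.888 and 1.03, the nuclear speckle list 0.869, 0.658, 0.858 and 1.14, and the list of factors that process or bind the 3′ ends of both RNAs 0.902, 0.744, 0.951 and 1.02. Of paraspeckle genes with at least 100 UMIs, 14 of 15, 12 of 13, 13 of 15 and 5 of 17 were lower. Among all such genes 2115 of 3611, 1760 of 2721, 1683 of 4027 and 1292 of 4818 were lower. *HNRNPA1*, at 0.944 in RV, gave 1455 of the 2827 CPM of the paraspeckle list in the lowest RV group. The list of other long noncoding RNAs, most of them nuclear, gave 1.23, 1.33, 1.32 and 1.16, among them *NORAD*, which binds PUMILIO proteins, at 1.77, 2.10, 1.43 and 1.15. *JPX* of the same list was at 0.740, 0.647, 1.16 and 0.972, so in S and RV, where these were the only list genes with at least 100 UMIs, they went opposite ways. Host genes of snoRNAs gave 0.916, 1.04, 0.983 and 0.888, the hypoxia list 0.946, 0.797, 0.860 and 1.14, and the heat shock list 1.04, 0.927, 0.750 and 1.09.

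**Figure D5:**
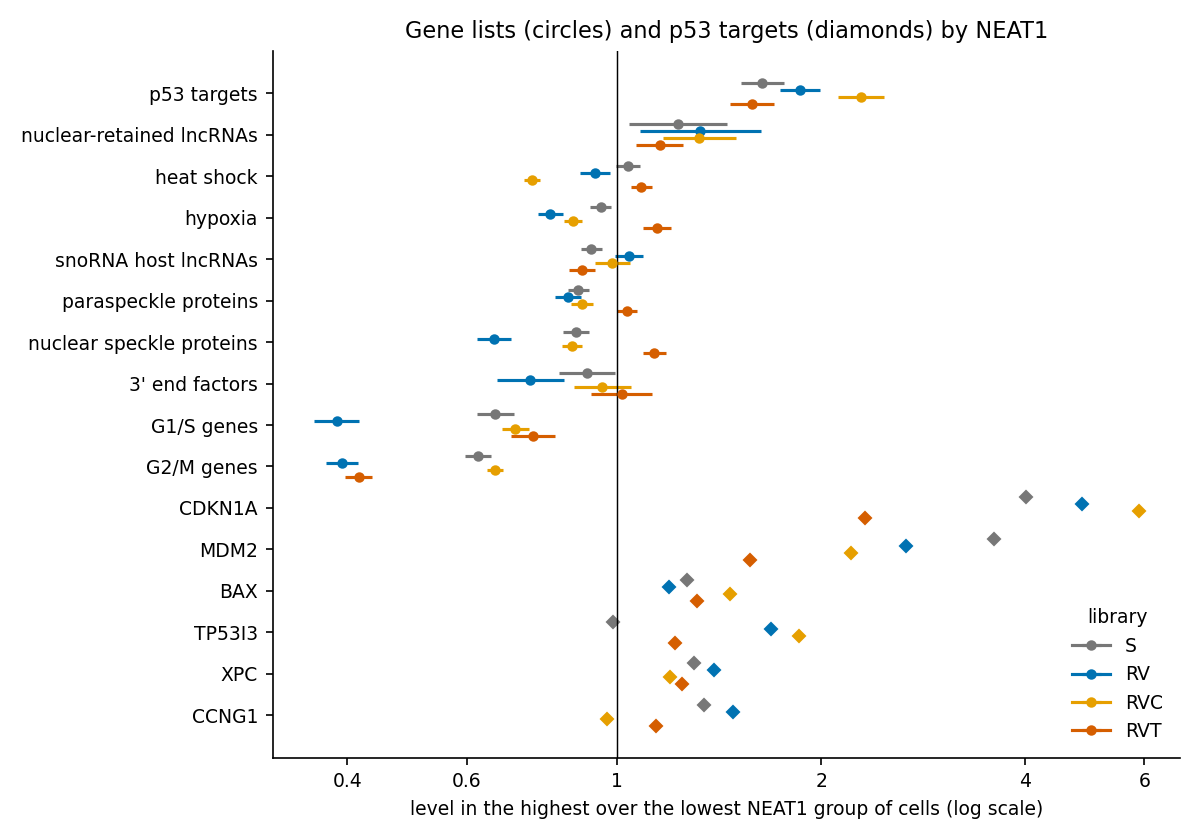
Ratio of the highest to the lowest *NEAT1* group of cells (thinned to 1500 UMIs, log axis) for gene lists, with 95% counting intervals, and for p53 targets with at least 100 UMIs in every library. The p53 list lies between 1.58 in RVT and 2.29 in RVC, and *CDKN1A* between 2.32 and 5.88.

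The same lists were set side by side between libraries. The p53 list summed to 604 CPM, 1107 CPM, 489 CPM and 492 CPM in S, RV, RVC and RVT, so RV was highest, and RVC and RVT were below S. Of its 17 genes with at least 10 CPM, 4 were past 2-fold higher and 0 lower in RV than in S, where 1.91% and 1.25% of all genes were. In RVC over S the counts were 2 higher and 5 lower, with 22.5% and 23.3% of all genes, and in RVT over S 2 and 7, with 28.7% and 24.3%. *CDKN1A* gave 102 CPM, 248 CPM, 137 CPM and 113 CPM in S, RV, RVC and RVT. *GDF15*, a stress-induced cytokine, gave 28.6, 143, 12.6 and 2.21 CPM. The 2 genes past 2-fold higher in RVT over S were *ZMAT3* (9.83, 13.0, 10.0 and 43.8 CPM) and *RRM2B* (5.49, 9.72, 13.3 and 27.0 CPM). Relative to RVC, RVT had 3 of the list past 2-fold higher and 5 lower, with 15.2% and 11.9% of all genes.

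For paraspeckle protein genes with at least 10 CPM, the log2 ratios in RVT over S lay between −1.92 (*HNRNPM*) and 1.40 (*RBM12*), against 4.01 for *NEAT1*. In RVC over S they lay between −1.38 (*HNRNPM*) and 1.33 (*HNRNPR*), against 1.64 for *NEAT1*. The gap in RVT is no result about these genes, since *NEAT1* was chosen for its level there. Of all genes, 0.707% had a higher ratio than *NEAT1* in RVT over S. None of the 20 paraspeckle genes passed 2-fold in RV over S, where 3.15% of all genes did. In RVC over S 3 were higher and 1 lower, and in RVT over S 5 were higher and 2 lower. In RVT over RVC 0 were higher and 1 was lower. The shares over all genes were 22.5% higher and 23.3% lower in RVC over S, 28.7% and 24.3% in RVT over S, and 15.2% and 11.9% in RVT over RVC. Their median log2 ratio was 0.04 in RVT over S, where the median of all genes was 0.21, and with TMM scaling the values were −0.48 and −0.30. *NONO* gave 129, 128, 192 and 263 CPM in S, RV, RVC and RVT, and *SFPQ*, its partner, 57.6, 54.1, 121 and 106 CPM. *PSPC1*, the third protein of that family, gave 12.2, 11.4, 12.0 and 12.7 CPM.

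Nuclear speckle genes, 19 in number, had 0 past 2-fold in RV over S, 6 higher and 0 lower in RVC over S, and 2 higher and 1 lower in RVT over S. For 11 factors that process or bind the 3′ ends of both RNAs, mostly RNase P subunits, the counts were 0 in RV, 2 higher and 4 lower in RVC and 2 higher and 5 lower in RVT. Over all genes the shares higher and lower were 1.91% and 1.25% in RV over S, 22.5% and 23.3% in RVC over S, and 28.7% and 24.3% in RVT over S. *HNRNPK*, a protein that favours the long form, gave 199.5, 206, 237 and 202 CPM. *METTL16*, which binds the *MALAT1* triple helix, gave 8.37, 7.89, 16.0 and 19.7 CPM.

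Of 14 other long noncoding RNAs listed, 10 were in all libraries and 4 reached a mean of 10 CPM, in part through the library where they were high. *FTX*, from the X-inactivation region, gave 1.16, 1.58, 10.2 and 42.0 CPM, with a log2 ratio of 5.18 in RVT over S that was above that of *NEAT1* (4.01). *JPX*, from the same region, gave 41.0, 41.5, 112 and 135 CPM. *NORAD*, a cytoplasmic RNA, gave 54.9, 58.2, 44.1 and 179 CPM, and *KCNQ1OT1*, an imprinted antisense RNA, 9.28, 4.98, 18.9 and 43.6 CPM. *PVT1*, transcribed beside *MYC*, was lower in the libraries with a MEK inhibitor, at 9.38, 12.8, 2.52 and 2.36 CPM. *HOTAIR* was at 6.89 CPM in RVT and under 0.8 CPM in the others. Of the 7 snoRNA host genes, 5 were past 2-fold lower in RVC over S, where 23.3% of all genes were, and 6 in RVT over S, where 24.3% were, with 0 higher in either.

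The hypoxia list, with 10 genes at 10 CPM or more, had 3 past 2-fold higher and 1 lower in RVC over S, and 1 higher and 3 lower in RVT over S. The heat shock list, also of 10, had 7 higher and 1 lower in RVC over S, and 4 higher and 1 lower in RVT over S. Neither list had a gene past 2-fold in RV over S, where 3.15% of all genes were. Against the other counts stand 22.5% of all genes higher and 23.3% lower in RVC over S, and 28.7% and 24.3% in RVT over S.

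Most genes around the locus were low. Within 250 kb of the members, 12 other genes reached 10 CPM, and the highest level of any neighbour in any library was 119 CPM (*SSSCA1*). None passed 2-fold in RV over S, 0 were higher and 7 lower in RVC over S, and 2 (*DPF2* and *FAM89B*) were higher and 6 lower in RVT over S. Of all genes, 1.91% were higher and 1.25% lower in RV over S, 22.5% and 23.3% in RVC over S, and 28.7% and 24.3% in RVT over S. The nearest gene upstream, *FRMD8*, gave 19.7, 12.4, 10.3 and 24.4 CPM in S, RV, RVC and RVT. The antisense gene *AP000769.2* within *MALAT1* was at 0.152 CPM or below in each library.

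By the Euclidean distance between log2 levels centred on their mean over the 4 libraries, the gene most like *NEAT1* among 2843 was *CCDC102B* (distance 0.327), at 10.9, 15.7, 39.5 and 157 CPM. It was followed by *ZDHHC12-DT*, *TIPARP*, a mono-ADP-ribosyltransferase, *STAT2*, a transcription factor of interferon signalling, and *ATP1B1*, a subunit of the sodium pump. *MALAT1* was the 765th most like *NEAT1* (distance 2.45). The genes most like *MALAT1* were *RASSF8* (distance 0.07), *CHD4*, a chromatin remodeller, *SHOC2*, a scaffold of RAS to RAF signalling, *IFT22* and *SELENOK*. With 4 libraries and so many genes, close profiles are a description only.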

How the data were processed

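Single-cell 3′ libraries (Chromium v2, 10000 cells loaded per condition) were aligned to GRCh38 and counted by the authors with Cell Ranger after bcl2fastq 2.20.0.422. The deposited values are whole UMI counts per gene and barcode, not normalized, with 1 library in each of 4 conditions. The members and the gene lists were chosen with earlier results of these data known.

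Barcodes with at least 500 genes and at most 20% mitochondrial UMIs were kept, and those with the highest Scrublet scores were removed (scanpy 1.11.5, at 0.8% per 1000 barcodes). UMIs were summed per library and divided by the library total (CPM, counts per 1000000 UMIs), with Poisson or Clopper-Pearson intervals. Genes with a mean of at least 10 CPM formed the background, and called means past 2-fold. No test was run, since each condition was 1 library. For comparisons of depth, cells were thinned to 1500 UMIs (seed 1). G1/S and G2/M lists came from Seurat 5.3.0, and TMM factors from edgeR 4.0.16 in R 4.3.3. The calculations used python 3.11.15. The ratio, interval, profile distance, correlation and rank group steps were tested on simulated data, and the thinning step was not. Sequences and coordinates came from GENCODE 29.

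Named were the members, genes of the fixed lists and genes within 250 kb. To these were added, for each member, the 5 genes nearest in profile over the libraries, among those of at least 50 CPM in their highest library, and the 5 with the highest and the 5 with the lowest mean correlation across thinned cells, among genes of at least 50 CPM in every library. Alternatives varied scaling, cell filters, cell weights, depth, GC content, expression minimum and grouping. The window of 4000 to 8000 UMIs, the kept doublets, the cells under 0.1% on G2/M genes and the ranking from thinned cells were added after seeing the data. Some genes and sequences are not reported here.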

Additional observations from a re-analysis of the deposited data

Results flagged for a closer look

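Barcodes removed for holding fewer than 500 genes had a much larger share of their UMIs on both RNAs than the cells kept. Their median UMIs were 711 in RVC and 755 in RVT, against 3958 and 2864 in the kept cells. Their median mitochondrial percent was 18.7 in RVC and 21.8 in RVT. They occurred in RVC (903 barcodes) and RVT (1084 barcodes), and the S and RV tables had none. In RVC they gave *NEAT1* at 8357.8 CPM and *MALAT1* at 180610 CPM, against 1450 and 25050 CPM in the kept cells. In RVT they gave *NEAT1* at 24085 CPM and *MALAT1* at 70485 CPM, against 7464 and 20041 CPM. They came to notice because they lie outside the cells compared, and untreated cells had no barcodes of this kind to set beside them. The ratios between libraries with all barcodes included are given with the other processing choices.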

How the results depend on the processing

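No paired analysis was possible because each condition was 1 library, and for the same reason no replicate could be left out. Of 112 alternative values for the ratios and background counts, 111 kept the sign of the reported value or had none. Log2 values are given in the order RV over S, RVC over S, RVT over S and RVT over RVC, where the reported values were 0.74, 1.64, 4.01 and 2.36 for *NEAT1* and −0.39, 1.09, 0.77 and −0.32 for *MALAT1*. TMM scaling gave 0.69, 1.43, 3.49 and 2.06, and −0.44, 0.88, 0.25 and −0.63, and moved the median of all genes from 0.02, 0.16, 0.21 and 0.16 to −0.02, −0.05, −0.30 and −0.15. Library sizes without ribosomal protein and mitochondrial genes gave 0.67, 1.45, 3.92 and 2.47, and −0.46, 0.89, 0.68 and −0.21. Centring on genes of similar GC content gave 0.71, 1.90, 4.44 and 2.40, and −0.43, 0.81, 0.52 and −0.47. Cells of 4000 to 8000 UMIs gave 1.11, 1.49, 3.70 and 2.21, and 0.022, 0.89, 0.43 and −0.46, so the *MALAT1* direction in RV over S turned. Cells under 0.1% on G2/M genes gave 1.34, 2.16, 3.50 and 1.34, and −0.16, 1.42, 0.67 and −0.75. Equal weight for each cell gave 0.78, 1.78, 4.12 and 2.34, and for *MALAT1* −0.32, 1.12 and −0.35 in RV over S, RVC over S and RVT over RVC. For the last 3 comparisons, all barcodes gave 1.77, 4.09 and 2.32, and 1.27, 0.89 and −0.37, and at least 1000 genes gave 1.58, 3.93 and 2.35, and 1.06, 0.75 and −0.31. At most 10% mitochondrial UMIs gave *NEAT1* 1.62 in RVC and 3.98 in RVT over S, and *MALAT1* 1.06, 0.75 and −0.32. With doublets kept *MALAT1* gave 1.10, 0.79 and −0.31.

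The log2 of *NEAT1* over *MALAT1* UMIs in S, RV, RVC and RVT was −4.66, −3.54, −4.11 and −1.43. It was −4.64, −3.52, −4.13 and −1.44 with all barcodes, −4.77, −3.69, −4.17 and −1.51 in cells of 4000 to 8000 UMIs, and −4.74, −3.65, −4.08 and −1.39 with equal weight. It was −4.15 in RVC and −1.49 in RVT with at least 1000 genes, −1.43 in RVT with at most 10% mitochondrial UMIs, and −4.64 in S and −3.52 in RV with doublets kept. With no expression minimum 27.5% of genes were past 2-fold in RV over S and 49.7% in RVT over RVC. The log2 ratio of *MALAT1* between the highest and lowest of 4 G1/S groups of RVT cells, 0.03, turned to −0.004 with at least 1000 genes and to −0.019 with 10 groups. Of 228 alternatives for the other results, 90 moved by less than the counting interval and 136 by more. The causes were not tested.

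The number of libraries limits each comparison, since drug, culture and library cannot be told apart. Annotation and depth also differ between S and RV on one side and RVC and RVT on the other. The mitochondrial share was highest in RVT.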

Other observations

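Among the barcodes removed for holding fewer than 500 genes, both RNAs were higher where the mitochondrial share was above 20%. In RVC, 481 barcodes of at most 20% gave *NEAT1* at 6765 CPM and *MALAT1* at 176380 CPM, and 422 barcodes above it gave 10162 and 185400 CPM. In RVT, 534 barcodes of at most 20% gave 12986 and 40395 CPM, and 550 above it gave 38343 and 109140 CPM.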
